A study of Gallus gallus and Dromaius novaehollandiae with 40 samples.

Results

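The genes described here build the extracellular matrix, cut and remodel it, or bind it from the cell surface. They were matched by gene symbol, under a rule set with earlier results of these data known: collagens, laminins, nidogens, perlecan, fibrillins, fibulins, emilins, elastin, fibronectin, tenascin C, thrombospondins, matrilins, SPARC proteins, periostin, small and large proteoglycans, lysyl oxidases, matrix metalloproteinases (MMPs), the ADAMTS and ADAMTS-like family, their tissue inhibitors (TIMPs) and integrin subunits. The rule matched 113 of the 12338 genes in the count tables of early tissue. Of these, 5 carry a matching symbol without being matrix or integrin genes by that name alone: ITGB1BP1, ITGB1BP2, ITGB1BP3, ITGB3BP and LOXHD1. They are counted with the rest and are not described as matrix genes.

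RNA was sequenced from tissue at the level of the forelimb in emu (Dromaius novaehollandiae) and chick (Gallus gallus) embryos with no treatment or genotype named in the labels. The groups were the emu somatopleure (3 libraries, numbered 13, 53 and 5), splanchnopleure (2, numbered 6 and labelled as a pool) and lateral plate mesoderm not labelled as either layer (3, numbered 1, 23 and 8), and the chick somatopleure (3; 15, 60 and 63), splanchnopleure (3; 50, 61 and 64) and lateral plate (3; 30, 31 and 32). The somatopleure is the outer layer of the lateral plate, from which the limb bud grows, and the splanchnopleure is the inner one, facing the gut. By Hamburger and Hamilton (HH) stage both layers were labelled HH13 and the lateral plate HH10, except emu somatopleure 13, labelled HH10, and emu lateral plate 1, labelled HH13. Any comparison with the lateral plate is therefore also one between stages, and the contribution of tissue and that of stage cannot be told apart, while the layers were compared at a shared stage apart from emu somatopleure 13.

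An epithelium rests on a basement membrane, a sheet woven from laminins and type IV collagen, tied together by nidogens and perlecan. Mesenchyme lies in a looser matrix of fibrillar collagens, fibronectin, hyaluronan and proteoglycans, whose fibres are trimmed by ADAMTS enzymes, crosslinked by lysyl oxidases and turned over by MMPs. Integrins, each a pair of an alpha and a beta subunit, connect this matrix to the cytoskeleton. In the early embryo, the lateral plate is an epithelium that splits into 2 sheets, and cells of the somatopleure later leave it to form limb mesenchyme, whereas the splanchnopleure supplies the wall of the gut and many early blood vessels.

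Total counts ran from 7350786 to 8601471 per emu library and from 5061393 to 8348865 per chick library. Replicates all differed by more than sampling noise: chi-square per degree of freedom was at least 3.95 between any pair of them. Levels are given as CPM, the count relative to the library's size as scaled by edgeR's TMM method. The tissue labels were checked against marker genes: the summed level of 11 somatopleure markers (TBX5, PRRX1 and others) was 1068 to 1298 CPM in chick somatopleure, 75.9 to 163 in splanchnopleure and 223 to 350 in lateral plate, with 9 markers higher and 0 lower in somatopleure than in splanchnopleure. In the emu this sum was 221 to 516 CPM in somatopleure, 43.6 to 149 in splanchnopleure and 150 to 205 in lateral plate, with 3 markers higher and 0 lower in somatopleure than in splanchnopleure. Of all chick genes tested by edgeR, 7.34% were higher and 11.8% lower in this contrast at an adjusted p under 0.05. For the emu these shares were 5.05% and 8.34%. Splanchnopleure markers (9 genes, among them GATA4, FOXF1 and HAND1) summed to 905 to 923 CPM in emu splanchnopleure, against 487 to 802 in emu somatopleure and 254 to 522 in emu lateral plate, and to 605 to 792 CPM in chick splanchnopleure, against 306 to 384 in chick somatopleure and 270 to 553 in chick lateral plate. ALX1 was at 0 in emu lateral plate and NKX2-5 in chick somatopleure.

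Individual libraries stood apart in these genes. Emu splanchnopleure 6 held the higher of both splanchnopleure values for 91 of 108 tested genes of the set (84.3%), against 49.5% of all genes tested. Emu lateral plate 1, the library labelled HH13, was the lowest of its tissue for 61 of 108 (56.5%; all genes, 34.8%), and emu somatopleure 5 was the highest of its tissue for 62 (57.4%; all genes, 34.2%). In the chick, splanchnopleure 64 was the highest of its tissue for 61 of 99 (61.6%; all genes, 34.9%). Counts over the whole set, and counts per role or list of matrix genes that moved by more than 1.5 times, are therefore also given with libraries left out. Counts of cell type markers are given for the full fits alone, and their dependence on single libraries is not shown. When 1 emu splanchnopleure library is left out, the other is assumed to vary like the other groups.

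**Figure D1:**
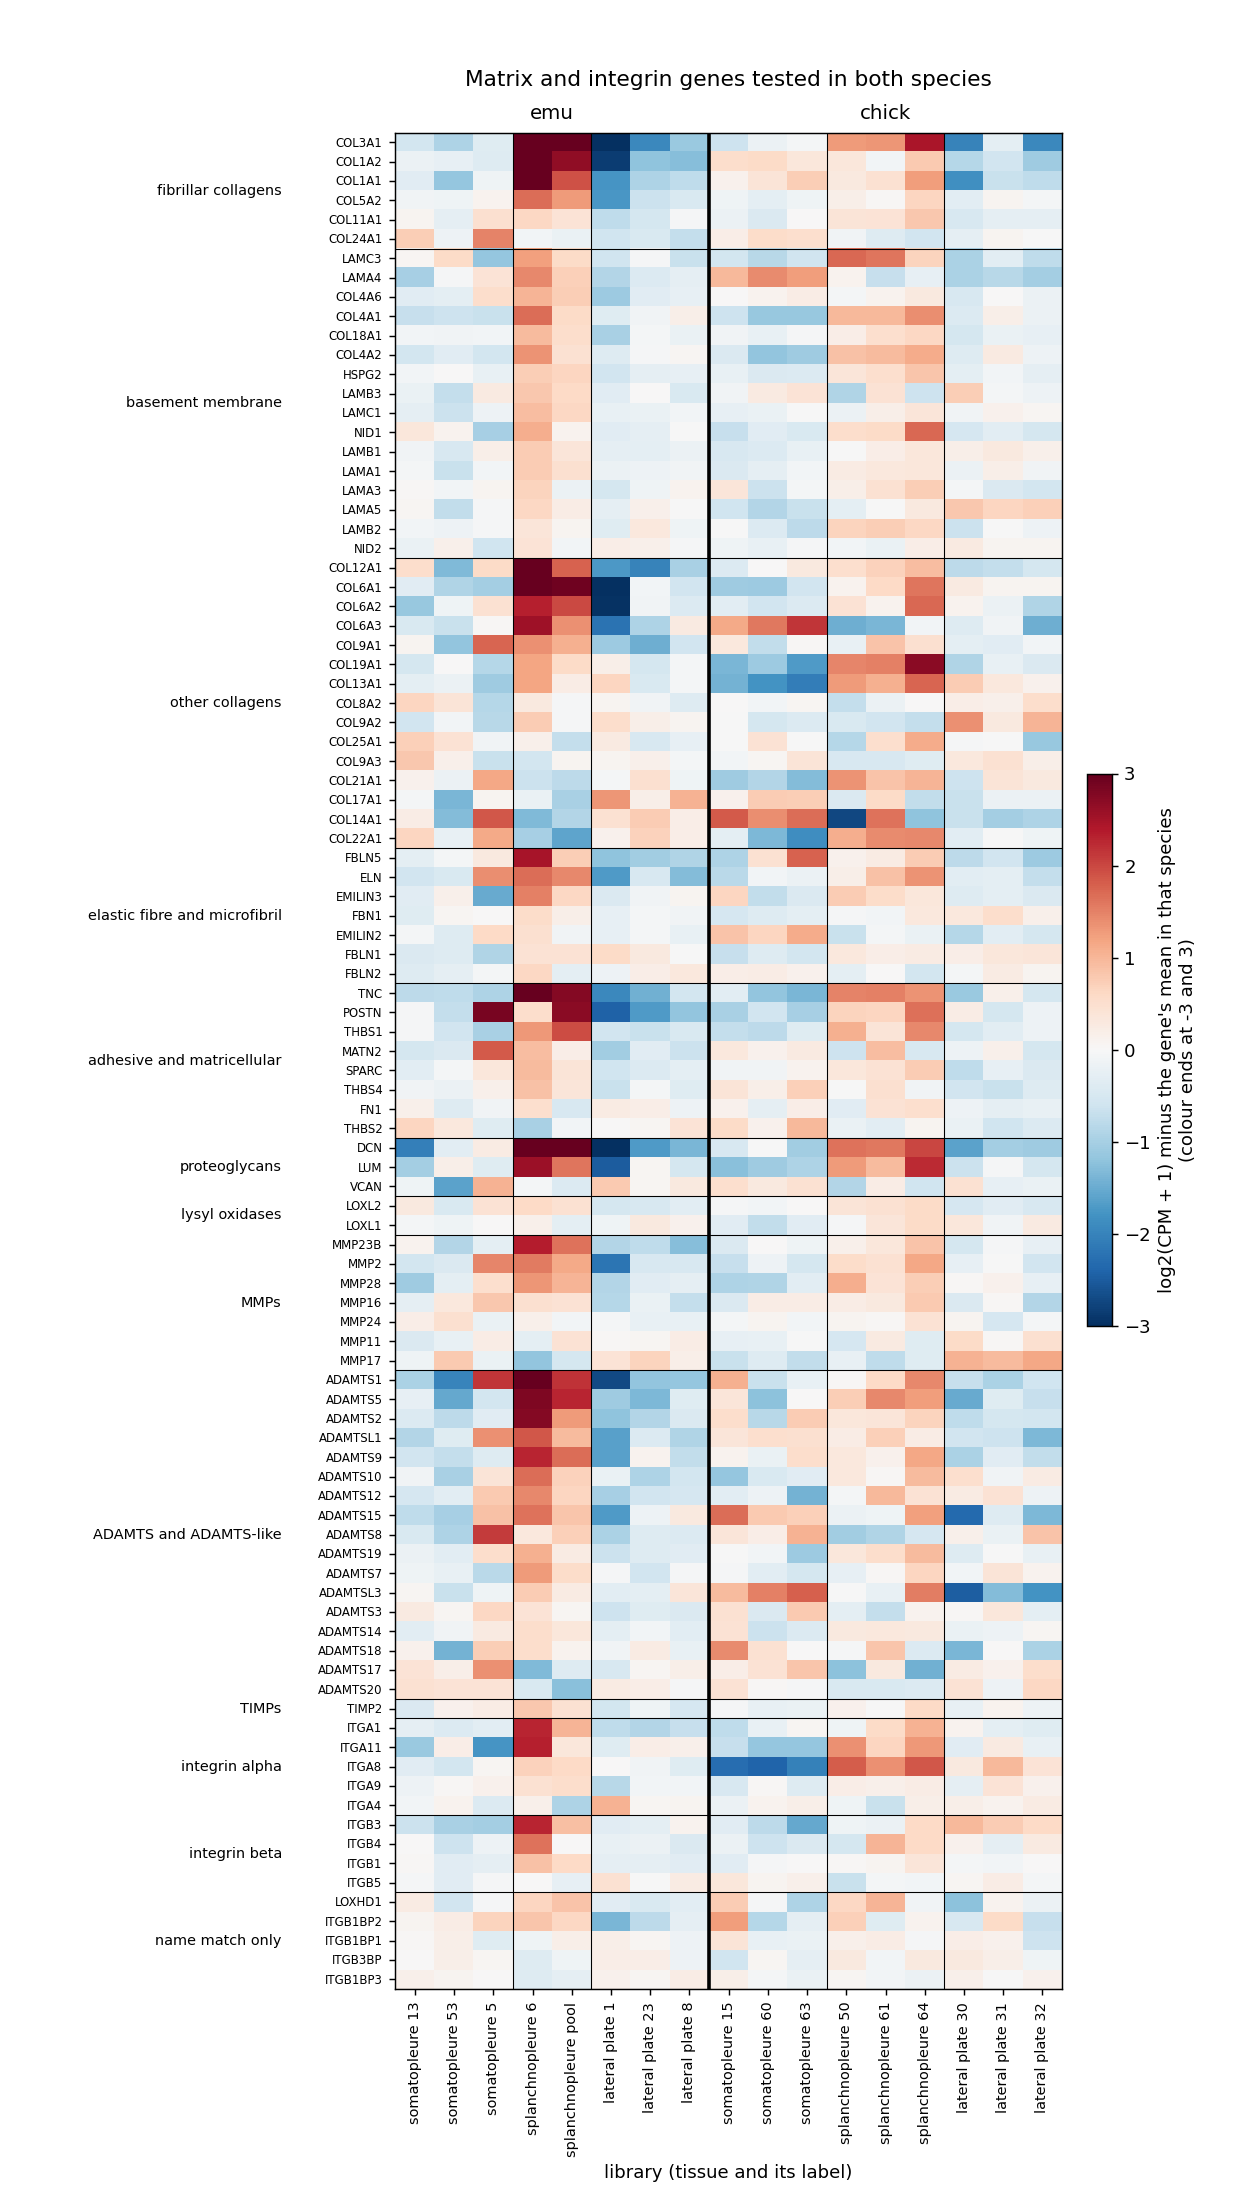
Each cell is a gene's log2(CPM + 1) in 1 library minus the gene's mean over all libraries of that species, for 96 of the 97 genes of the set tested in both species, grouped by role and ordered by the emu change of splanchnopleure against lateral plate; columns run somatopleure, splanchnopleure, lateral plate, emu first. The splanchnopleure columns are red for most fibrillar collagens, basement membrane genes, TNC, DCN and LUM in both species, and emu lateral plate 1 is the bluest of its tissue for COL3A1, DCN, COL6A1 and LUM.

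A gene was called higher or lower at an adjusted p under 0.05 in edgeR's quasi-likelihood test, with Benjamini-Hochberg adjustment over every gene tested in that table. The largest changes named per role were taken among called genes whose libraries did not overlap between both tissues compared. For them, lack of overlap in that contrast was part of the choice and is not a separate result. In the emu 108 members of the set could be tested, and in the chick 99. More members were called higher than lower in splanchnopleure against the lateral plate in both birds. In the emu 56 members rose and 5 fell (background: 20.6% of all 10640 genes tested were called, 11.4% as higher and 9.21% as lower; median log2 change 1.07 in the set and 0.00 over all genes). In the chick 33 rose and 5 fell (background 16.9% of 10071 genes, 9.07% higher and 7.78% lower; medians 0.76 and 0.01).

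Those emu counts depended on single libraries. Without splanchnopleure 6 they were 17 higher and 1 lower, without the pooled splanchnopleure library 47 and 2, without lateral plate 1 30 and 0, without lateral plate 23 38 and 2, and without lateral plate 8 37 and 0. The calls on 17 members held with each of the 5 libraries left out in turn: COL1A1, COL1A2, COL3A1, COL5A2, COL6A1, COL12A1, COL4A4, HSPG2, DCN, TNC, THBS1, ADAMTS2, ADAMTS5, ADAMTS9, MMP23B, ITGA1 and ITGB1, all of them rises. In the chick 26 of 38 calls held. The number of chick rises stayed between 23 and 34, and the 5 falls became 3 without lateral plate 30, lateral plate 32 or splanchnopleure 50.

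Against the splanchnopleure, 4 members were higher and 36 lower in emu somatopleure (background 13.4%, 5.05% higher and 8.34% lower; median -0.86 in the set and 0.04 over all genes). In the chick 6 were higher and 39 lower (background 19.1%, 7.34% higher and 11.8% lower; medians -0.48 and -0.00). Left-out libraries moved the emu counts to 1 higher and 14 lower without splanchnopleure 6, to 1 and 39 without the pooled library and to 0 and 23 without somatopleure 13. In the chick the 6 higher members became 11 without splanchnopleure 61, and 31 of 45 calls held throughout, as did 14 of 40 in the emu.

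Against the lateral plate, no member was called in emu somatopleure (0 of 108; background 0% of 10640 genes; median 0.28 in the set and 0.01 over all genes). Of the 108, 22 had an unadjusted p under 0.05, as did 1107 genes in all. DESeq2, which called 1.32% of all genes in this contrast, called 3 members: COL1A2 (log2 1.34, adjusted p 0.0129) and ADAMTS3 (0.83, 0.00733) as higher and FBLN1 (-0.87, 0.00165) as lower. In the chick 12 members were higher and 13 lower in somatopleure than in lateral plate (background 9.8%, 3.52% higher and 6.28% lower; medians -0.04 and 0.00), and 15 of these 25 calls held with each library left out.

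Endothelial marker sums were higher in splanchnopleure than in somatopleure in both birds, and lay above the lateral plate without overlap in the emu alone. The summed level of 16 such genes was 1472 to 2749 CPM in emu splanchnopleure, against 335 to 821 in somatopleure and 617 to 800 in lateral plate, and library 6 held the highest value. In the chick it was 1259 to 1836 CPM in splanchnopleure, against 304 to 459 in somatopleure and 1031 to 1320 in lateral plate. Of the 16, 12 rose in emu splanchnopleure and 2 in chick splanchnopleure against the lateral plate. The chick share was near that of all genes (11.4% called higher in the emu and 9.07% in the chick). In each species 13 were lower in somatopleure than in splanchnopleure (all genes, 8.34% in the emu and 11.8% in the chick). None of the 16 was at 0 in any tissue. Endoderm markers (9 genes, CLDN8 at 0 throughout and IHH at 0 in chick somatopleure) summed to 16.7 to 43.0 CPM in emu somatopleure, 117 to 151 in splanchnopleure and 37.7 to 69.2 in lateral plate, and to 7.13 to 21.7, 453 to 568 and 164 to 289 CPM in the same chick tissues. The sums of somite, posterior growth zone and cardiac markers were highest in chick lateral plate without overlap. Somite markers had 48.6 to 97.7 CPM there, against 6.52 to 11.5 in somatopleure and 21.5 to 31.2 in splanchnopleure. Posterior growth zone markers had 108 to 532, 64.5 to 93.3 and 52.7 to 75.0 CPM, and cardiac markers 73.0 to 81.1, 38.9 to 50.9 and 47.5 to 59.5. In the emu each of these lateral plate ranges overlapped that of a layer. Surface ectoderm and nephric markers were lowest in emu splanchnopleure without overlap. Surface ectoderm markers summed to 302 to 304 CPM there, against 351 to 605 in somatopleure and 457 to 582 in lateral plate. Nephric markers had 60.8 to 132, 162 to 220 and 134 to 149 CPM in the same order. In the chick, splanchnopleure overlapped another tissue for both lists. The part of these cell types in the matrix results was not tested, and in bulk tissue fewer cells of a type and less RNA per cell cannot be told apart.

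**Figure D2:**
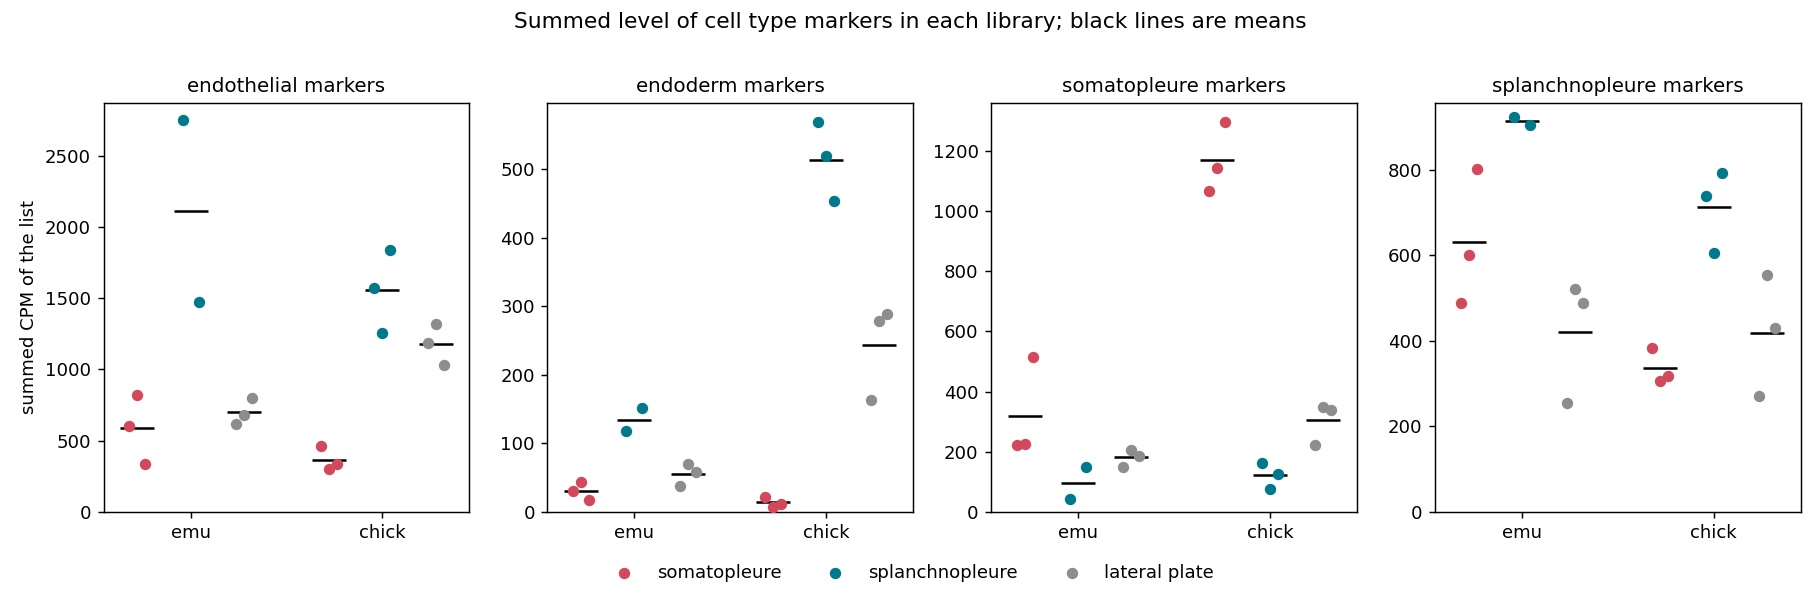
Points are libraries and black lines tissue means of the summed CPM of 4 lists of cell type markers; the axis starts at 0 in each panel. The mean endothelial and endoderm sums are highest in the splanchnopleure of both species, with overlap between chick splanchnopleure and lateral plate in the endothelial panel, and emu splanchnopleure 6 (2749 CPM) lies above the pooled library (1472 CPM) in the endothelial panel.

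**Figure D3:**
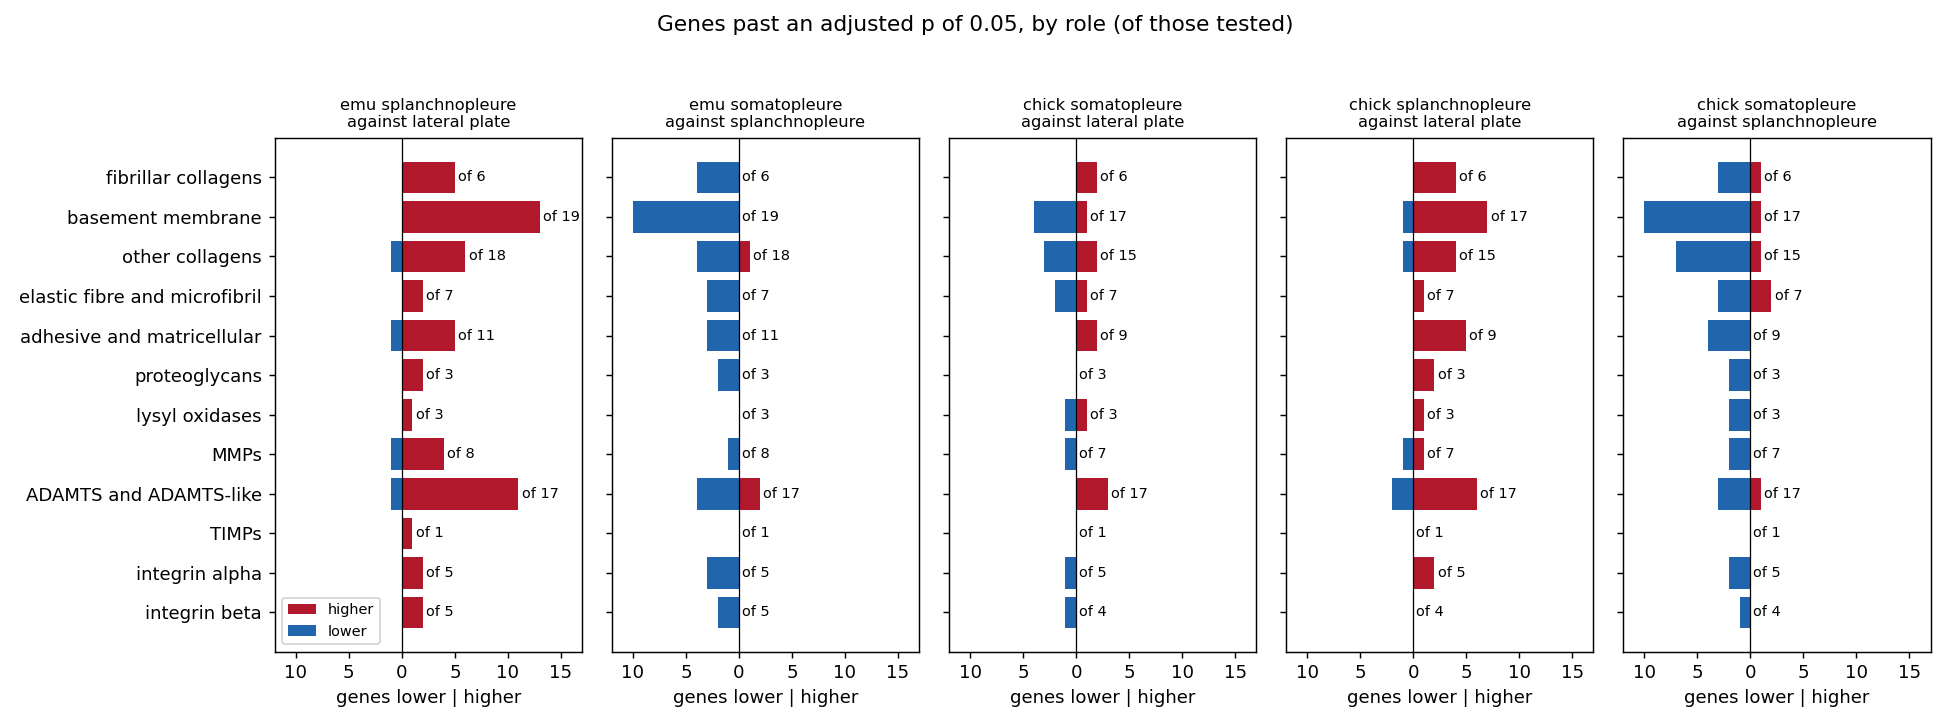
Bars give the number of genes of each role called lower (left, blue) and higher (right, red) at an adjusted p under 0.05, beside the number tested; the emu comparison of somatopleure against lateral plate, with 0 calls, is not drawn. Rises in the splanchnopleure against the lateral plate came from every role in the emu (all genes called higher, 11.4%). In somatopleure against splanchnopleure the basement membrane genes, the role with the most members, gave the highest number of falls. The bars are counts and do not rank roles by share (all genes called lower, 8.34% in the emu and 11.8% in the chick).

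The fibrillar collagens form the banded fibres of mesenchyme, and 6 of their chains were measured. In emu splanchnopleure 5 of 6 rose against the lateral plate (median log2 change 3.04), and in chick splanchnopleure 4 of 6 (median 1.05). With a library left out these counts stayed between 4 and 5 in each bird. The shares of all genes called higher were 11.4% in the emu and 9.07% in the chick. COL3A1, the chain of type III collagen, a fibre of soft and vessel-rich tissue, showed the largest rise of the set in the emu. It stood at 93.0, 71.7 and 107 CPM in emu somatopleure, at 8857 and 2848 in splanchnopleure and at 2.06, 35.1 and 63.1 in lateral plate. Chick levels were 350, 480 and 520 CPM in somatopleure, 1301, 1357 and 2973 in splanchnopleure and 134, 440 and 141 in lateral plate. In both birds every splanchnopleure library lay above every other library. The rise in splanchnopleure over lateral plate was 7.46 ± 1.05 log2 units in the emu (SE; adjusted p 0.00372) and 2.98 ± 0.47 in the chick (0.00271). The emu value was 6.42 without splanchnopleure 6, 8.06 without the pooled library and 8.31 without lateral plate 8, and the chick value was 3.77 without lateral plate 31.

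COL1A1 and COL1A2 encode both chains of type I collagen, the main fibre of most connective tissue. COL1A2 was measured at 534, 508 and 457 CPM in emu somatopleure, 6630 and 3816 in splanchnopleure and 83.3, 261 and 247 in lateral plate. Chick COL1A2 was measured at 862, 886 and 752 CPM in somatopleure, 752, 561 and 1021 in splanchnopleure and 330, 402 and 283 in lateral plate. The emu layers were far apart, with the somatopleure in between, while the chick layers overlapped and both lay above the lateral plate. The COL1A2 change of emu somatopleure against splanchnopleure was -3.39 ± 0.43 log2 units (adjusted p 0.00365). In the chick the same contrast was 0.10 ± 0.19 (adjusted p 0.758), and both chick layers rose over the lateral plate by 1.3 ± 0.19 (somatopleure, 0.00163) and 1.20 ± 0.19 (splanchnopleure, 0.00279).

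COL1A1 followed its partner. Emu libraries had 694, 391 and 805 CPM in somatopleure, 7749 and 3293 in splanchnopleure and 257, 462 and 514 in lateral plate, and chick libraries 50.6, 60.1 and 77.9, then 56.8, 63.1 and 111, then 12.2, 28.5 and 26.8 CPM. The chick layers again overlapped each other and lay above the lateral plate. COL1A1 rose by 3.75 ± 0.44 in emu splanchnopleure (adjusted p 0.00252; 3.0 without library 6) and by 1.80 ± 0.33 in chick splanchnopleure (0.0058). Its rise in chick somatopleure, 1.5 ± 0.33 (adjusted p 0.0156), missed the threshold without somatopleure 63 (0.0511). COL5A2, a chain of type V collagen, which starts fibres of type I, rose by 2.34 ± 0.32 in emu splanchnopleure (0.00338) and was 0.40 ± 0.15 in the chick (0.0828). COL24A1, a minor fibrillar chain, went the other way in the chick: it was higher in somatopleure (41.7, 53.5 and 51.6 CPM) than in splanchnopleure (33.5, 27.4 and 23.9 CPM), by 0.79 ± 0.17 (adjusted p 0.00725), with no overlap. COL11A1, a chain of type XI collagen, rose in chick splanchnopleure by 0.91 ± 0.16 (0.00494), and its emu rise of 0.94 ± 0.25 (0.03) was lost without lateral plate 1 (0.0978), lateral plate 23 (0.085), splanchnopleure 6 (0.176) or the pooled library (0.061).

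**Figure D4:**
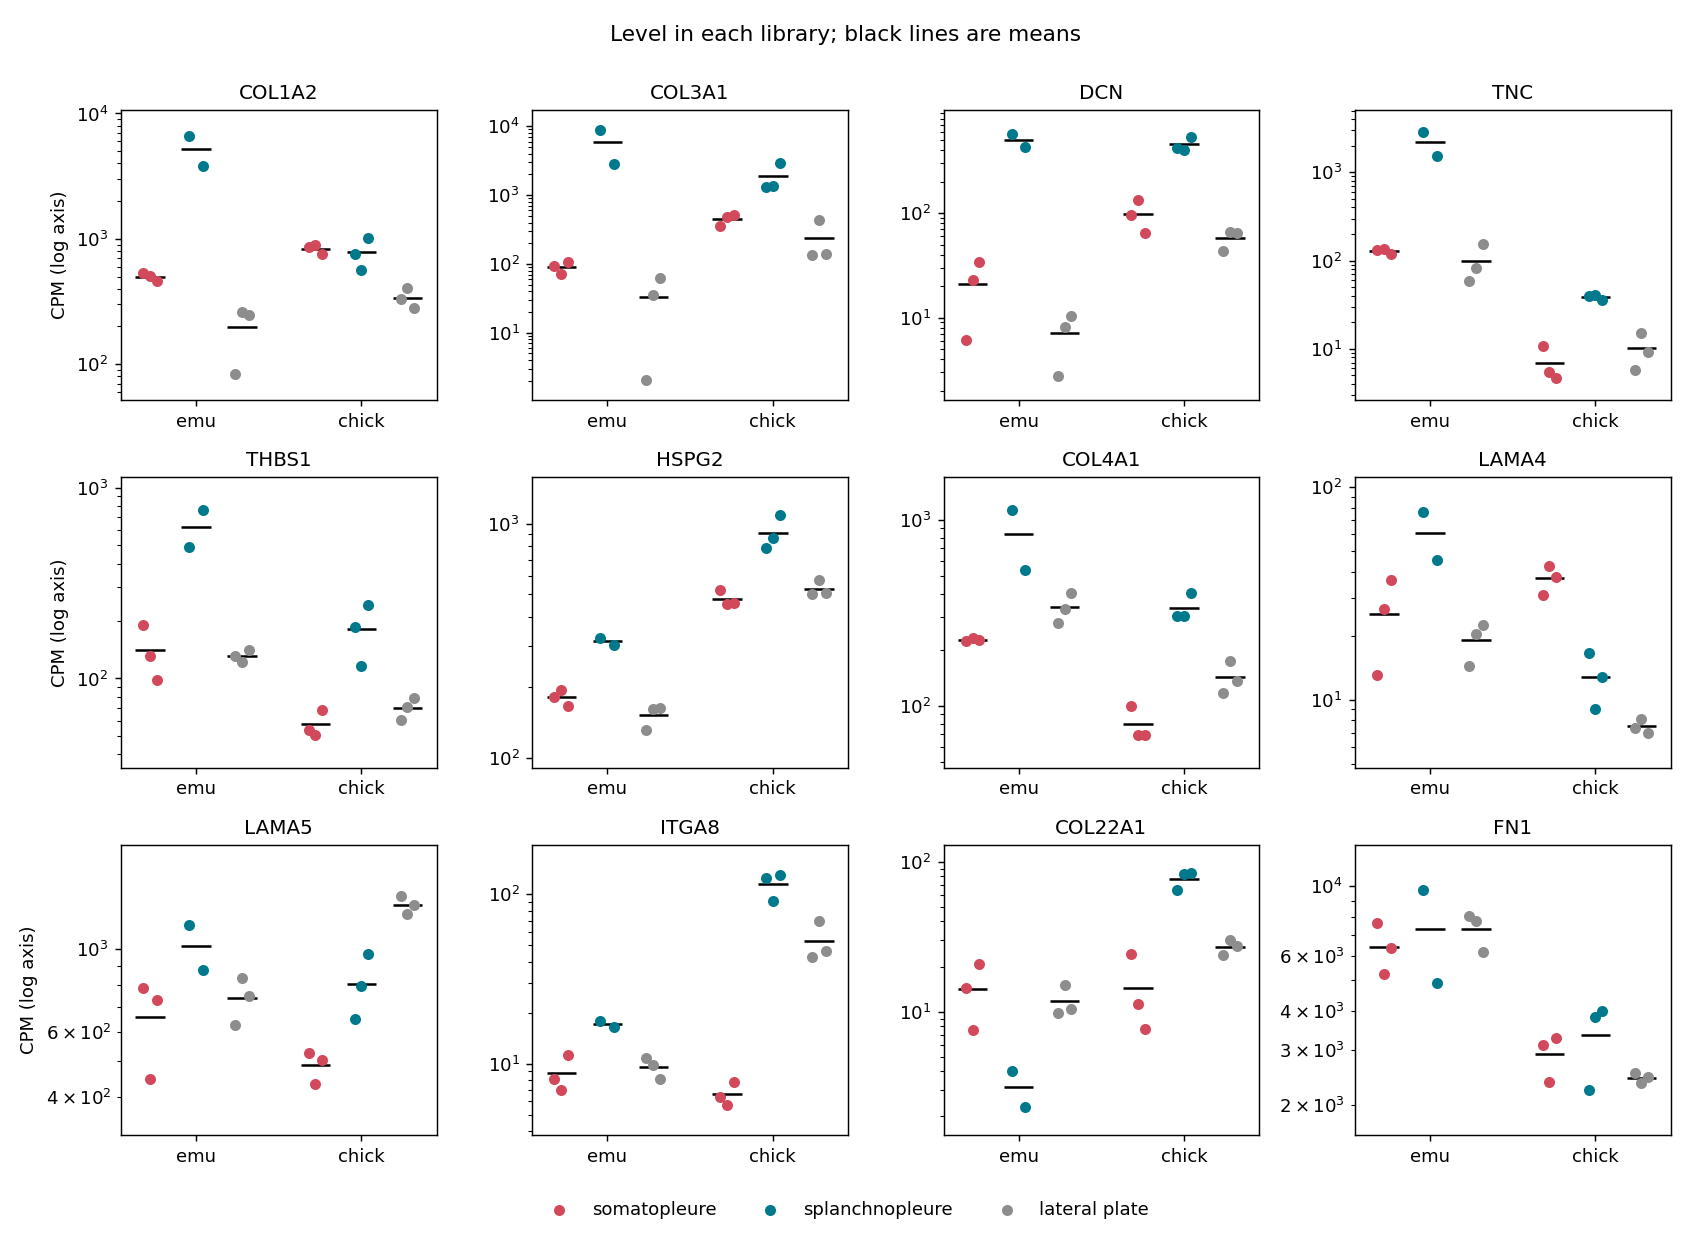
Each point is 1 library and each black line a tissue mean, in CPM on a log axis, for 12 genes of the set; emu groups are on the left and chick groups on the right of each panel. COL3A1, DCN, TNC, THBS1 and HSPG2 are highest in every splanchnopleure library of both species, COL1A2 only in the emu. LAMA4, LAMA5 and COL22A1 show different orders in emu and chick. ITGA8 has the same order of means in both, with somatopleure and lateral plate overlapping in the emu alone.

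Basement membrane genes were the largest group, with 19 members, of which 17 were tested in the chick. In emu splanchnopleure 13 rose and 0 fell against the lateral plate, and in chick splanchnopleure 7 rose and 1 fell (all genes called higher, 11.4% in the emu and 9.07% in the chick). The 13 emu rises became 2 without splanchnopleure 6 and 5 without lateral plate 1, and the chick rises stayed between 6 and 8. In somatopleure against splanchnopleure, 10 of 19 were lower in the emu and 10 of 17 in the chick, where 1 was higher (all genes called lower, 8.34% and 11.8%). The 10 emu falls became 3 without splanchnopleure 6 and 6 without somatopleure 13, and the chick falls stayed between 9 and 10. HSPG2 encodes perlecan, the large heparan sulfate proteoglycan of basement membranes. It stood at 182, 195 and 166 CPM in emu somatopleure, 326 and 304 in splanchnopleure and 131, 161 and 163 in lateral plate. Chick perlecan stood at 519, 455 and 458 CPM in somatopleure, 786, 866 and 1095 in splanchnopleure and 502, 575 and 504 in lateral plate. Every splanchnopleure library was above the rest in both birds. Perlecan rose in splanchnopleure by 1.05 ± 0.13 in the emu (adjusted p 0.00278) and by 0.80 ± 0.12 in the chick (0.00186), and both calls held with any library left out.

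COL4A1 and COL4A2, the widespread chains of type IV collagen, lie next to each other in the chicken gene table and moved together. COL4A1 was at 222, 232 and 224 CPM in emu somatopleure, 1134 and 533 in splanchnopleure and 278, 332 and 402 in lateral plate. Chick COL4A1 was at 99.2, 69.3 and 69.2 CPM in somatopleure, 302, 305 and 405 in splanchnopleure and 116, 174 and 135 in lateral plate. In each bird the somatopleure was lowest and the splanchnopleure highest, with no overlap between tissues. The difference of somatopleure from splanchnopleure was -1.88 ± 0.27 in the emu (adjusted p 0.0049; -1.24 without splanchnopleure 6) and -2.09 ± 0.19 in the chick (4.39e-05), and for COL4A2 it was -1.45 ± 0.23 (0.0073) and -1.85 ± 0.21 (0.000177). The rise of COL4A1 in emu splanchnopleure over the lateral plate, 1.31 ± 0.27 (0.0131), was lost without lateral plate 1 (0.0525) or splanchnopleure 6 (0.0962). The mean endothelial sums have the same order of tissues in both birds; their part in the type IV collagen result was not tested.

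The neighbouring pair COL4A3 and COL4A4, chains of a restricted type IV network known from kidney and lung, was measurable in the emu alone. COL4A4 had 15.9, 5.05 and 20.2 CPM in emu somatopleure, 163 and 52.0 in splanchnopleure and 6.97, 9.60 and 8.45 in lateral plate. It rose in splanchnopleure by 3.69 ± 0.57 (adjusted p 0.00505; 2.64 without library 6, 4.3 without the pooled library). COL4A3 rose by 3.58 ± 0.72 (0.0119), a call lost without splanchnopleure 6 (0.126) or lateral plate 1 (0.0503). In the chick these genes had 62 and 34 counts over all 9 libraries and were not tested.

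Laminins are trimers of an alpha, a beta and a gamma chain. LAMA1, LAMB1 and LAMC1, which together form laminin-111, the first laminin of the embryo, had emu somatopleure levels below the splanchnopleure, with changes of -0.88 ± 0.18 (LAMA1, adjusted p 0.0176), -0.68 ± 0.19 (LAMB1, 0.0444) and -1.12 ± 0.16 (LAMC1, 0.00474). The first call was lost without splanchnopleure 6 (0.143), and the call on LAMB1 also without it (0.328), without somatopleure 13 (0.101) or without somatopleure 53 (0.0786), while LAMC1 held. In the chick LAMA1 and LAMB1 were lower in somatopleure with a change of -0.56 ± 0.11 (0.00521) and -0.54 ± 0.10 (0.00277), and both held. LAMB1 was also lower in chick somatopleure (1029, 1088 and 1242 CPM) than in lateral plate (1632, 1759 and 1607 CPM), with a change of -0.57 ± 0.10 (0.0035).

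LAMA4 and LAMA5 departed from that order. LAMA4, an alpha chain best known from vessel walls and mesenchyme in mouse, was the basement membrane gene that rose in chick somatopleure. It was at 31.2, 42.8 and 37.7 CPM there, at 16.7, 9.03 and 12.8 in chick splanchnopleure and at 7.38, 8.15 and 7.01 in chick lateral plate. In the emu it was at 13.1, 26.6 and 36.4 CPM in somatopleure, 76.2 and 45.3 in splanchnopleure and 14.4, 20.3 and 22.5 in lateral plate. The chick tissues did not overlap and the somatopleure was highest, whereas in the emu the splanchnopleure was highest. The chick somatopleure rose by 2.30 ± 0.23 over the lateral plate (adjusted p 0.000178) and by 1.53 ± 0.22 over the splanchnopleure (0.000852), and both calls held; the emu values were 0.41 ± 0.36 (0.726) and -1.26 ± 0.39 (0.0642).

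LAMA5, the broadly used alpha chain that replaces LAMA1 in many later basement membranes, fell in both chick layers. Chick libraries had 526, 435 and 502 CPM in somatopleure, 649, 795 and 973 in splanchnopleure and 1388, 1244 and 1318 in lateral plate, with no overlap between tissues. The changes against the lateral plate were -1.43 ± 0.13 (somatopleure, adjusted p 8.47e-05) and -0.71 ± 0.13 (splanchnopleure, 0.00519). Emu LAMA5 was at 787, 448 and 730 CPM in somatopleure, 1160 and 878 in splanchnopleure and 627, 838 and 747 in lateral plate, and no emu call was made. LAMC3, a gamma chain, rose in chick splanchnopleure by 2.43 ± 0.38 (0.00251), and NID1, the nidogen that links laminin to type IV collagen, by 1.52 ± 0.27 (0.00519). COL18A1, whose cleaved end is endostatin, rose in splanchnopleure by 0.76 ± 0.11 in the chick (0.00196) and by 1.11 ± 0.24 in the emu (0.014; lost without splanchnopleure 6, 0.121). NID2 was called in no comparison.

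The other collagens did not all move the same way. Type VI collagen forms beaded filaments around cells from the chains of COL6A1, COL6A2 and COL6A3. Emu COL6A1 had 256, 174 and 160 CPM in somatopleure, 2766 and 2446 in splanchnopleure and 36.6, 306 and 217 in lateral plate, with the splanchnopleure far above both others. It rose in splanchnopleure by 3.81 ± 0.66 over the lateral plate (adjusted p 0.00732), which held with any library left out. Chick COL6A1 was low, at 3.49, 3.44 and 5.42 CPM in somatopleure, 9.16, 13.3 and 27.9 in splanchnopleure and 10.4, 9.04 and 9.01 in lateral plate, and was lower in somatopleure than in splanchnopleure with a change of -2.03 ± 0.39 (0.00428; -1.43 without splanchnopleure 64). Levels of a gene were not compared between species, because gene length, genome and annotation also enter them.

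COL6A3 went with the somatopleure in the chick and with the splanchnopleure in the emu. Chick libraries had 86.4, 119 and 174 CPM in somatopleure, 13.5, 14.4 and 36.7 in splanchnopleure and 29.7, 36.0 and 13.4 in lateral plate, so every somatopleure library was above the rest. Emu libraries had 958, 828 and 1349 CPM in somatopleure, 7637 and 3410 in splanchnopleure and 279, 693 and 1588 in lateral plate, so every splanchnopleure library was above the rest. Somatopleure against splanchnopleure was 2.53 ± 0.43 in the chick (adjusted p 0.00209, held; 3.19 without splanchnopleure 64) and -2.40 ± 0.60 in the emu (0.0344). The emu call was lost without splanchnopleure 6 (0.254), somatopleure 13 (0.0964) or somatopleure 53 (0.0905).

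COL12A1, a collagen that decorates type I fibres, rose in splanchnopleure by 4.25 ± 0.62 in the emu (adjusted p 0.00406; 3.41 without library 6) and by 1.43 ± 0.18 in the chick (0.00091). Its emu libraries had 41.7, 10.8 and 43.1 CPM in somatopleure, 259 and 100 in splanchnopleure and 7.88, 6.40 and 14 in lateral plate, so the splanchnopleure stood alone. COL22A1, a fibril-associated collagen of tissue junctions such as that of muscle and tendon, had opposite orders in the 2 birds. In the emu it was at 14.4, 7.51 and 20.8 CPM in somatopleure, 4.0 and 2.33 in splanchnopleure and 9.83, 15.0 and 10.4 in lateral plate. Chick COL22A1 was at 24.3, 11.3 and 7.63 CPM in somatopleure, 65.1, 83.0 and 83.8 in splanchnopleure and 24, 30.1 and 27.4 in lateral plate. The splanchnopleure was thus the lowest emu tissue and the highest chick tissue, with no overlap. Splanchnopleure against lateral plate was -1.89 ± 0.48 in the emu (0.0265) and 1.51 ± 0.31 in the chick (0.00956). The chick call held, and the emu call missed the threshold without any 1 of the 5 libraries: lateral plate 1 (0.0583), lateral plate 23 (0.0689), lateral plate 8 (0.0554), splanchnopleure 6 (0.0924) and the pool (0.127).

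COL13A1, a collagen anchored in the cell membrane, was low in chick somatopleure (5.12, 3.69 and 2.83 CPM), against 38.2, 32.8 and 53.5 in splanchnopleure and 26.4, 19.3 and 16.6 in lateral plate. No tissues overlapped, and somatopleure differed from splanchnopleure with a change of -3.42 ± 0.29 (adjusted p 2.72e-05) and from lateral plate with a change of -2.42 ± 0.29 (0.000418). COL19A1, a fibril-associated collagen, was highest in chick splanchnopleure, with 0.25, 0.509 and 0 CPM in somatopleure, 7.96, 8.27 and 20.2 in splanchnopleure and 0.726, 1.78 and 1.4 in lateral plate. It rose there by 3.24 ± 0.57 over the lateral plate (0.00486), 2.64 without splanchnopleure 64. COL21A1, another of this kind, was lower in chick somatopleure than in splanchnopleure with a change of -3.05 ± 0.44 (0.000863), and in the emu the change was 1.22 ± 0.39 (0.0685). COL9A2, a chain of cartilage type IX collagen, fell in chick splanchnopleure with a change of -1.62 ± 0.27 (0.00375) and in chick somatopleure with a change of -1.32 ± 0.27 (0.00964; 0.0512 without lateral plate 30). COL8A1, known from vessel walls and the cornea, was at 48.5 CPM in emu splanchnopleure 6 and 3.62 in the pooled library, against 1.0, 0.546 and 0.263 in somatopleure and 0.571, 0.123 and 0.857 in lateral plate; its call (5.61 ± 1.05, 0.00945) was lost without library 6 (0.125). COL14A1 in chick splanchnopleure was 6.61, 157 and 20.9 CPM, a range that overlaps both other tissues, and it was not called.

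The elastic fibre and microfibril group held 7 genes. In chick somatopleure 1 rose and 2 fell against the lateral plate (all genes, 3.52% higher and 6.28% lower). There, 2 were higher and 3 lower than in splanchnopleure (all genes, 7.34% higher and 11.8% lower). The 2 higher became 1 without any chick library of those layers but splanchnopleure 61, and the 3 lower became 1 without splanchnopleure 64 and 2 without somatopleure 60. The 1 that rose over the lateral plate became 2 without somatopleure 15. EMILIN2, a glycoprotein found along elastic fibres, was the one that rose: 154, 132 and 184 CPM in chick somatopleure, 52.6, 80.8 and 72.8 in splanchnopleure and 46.2, 67.8 and 57.9 in lateral plate. The somatopleure libraries lay well above both other tissues, by 1.45 ± 0.19 over the lateral plate (adjusted p 0.000705) and 1.19 ± 0.18 over the splanchnopleure (0.00123). Emu EMILIN2 was at 53.7, 42.5 and 84.5 CPM in somatopleure, 78.6 and 52.3 in splanchnopleure and 47.1, 53.4 and 47.8 in lateral plate, with overlapping ranges and no call.

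FBLN1, fibulin-1, which binds fibronectin and laminin, was low in the somatopleure of both birds: 218, 227 and 158 CPM in emu somatopleure, 405 and 401 in splanchnopleure and 441, 365 and 297 in lateral plate. In the chick it was 136, 168 and 151 CPM in somatopleure, 275, 255 and 263 in splanchnopleure and 254, 278 and 284 in lateral plate. The somatopleure did not overlap the other tissues in either bird. Somatopleure against splanchnopleure was -1.0 ± 0.19 in the emu (adjusted p 0.0145; 0.092 without splanchnopleure 6) and -0.80 ± 0.09 in the chick (0.000178). FBN1, the main microfibril protein fibrillin-1, fell in chick somatopleure against lateral plate with a change of -0.74 ± 0.13 (0.00436). ELN, elastin itself, rose in splanchnopleure by 2.71 ± 0.60 in the emu (0.0164) and 1.37 ± 0.31 in the chick (0.0136). The emu call was lost without lateral plate 1 (0.0639), lateral plate 8 (0.057) or splanchnopleure 6 (0.0914), and the chick call without lateral plate 32 (0.0621) or splanchnopleure 64 (0.0603). FBLN5, fibulin-5, which assembles elastic fibres, had 114 counts in emu splanchnopleure and 3 in emu lateral plate, a ratio of 61.4 per library size (exact 95% interval 20.5 to 302, counting error only), and its call was lost without splanchnopleure 6 (0.0514).

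Among the adhesive and matricellular genes, 5 rose in the splanchnopleure of each species, out of 11 tested in the emu and 9 in the chick. The shares of all genes called higher were 11.4% and 9.07%. Both birds had the same 5 genes: TNC, THBS1, POSTN, SPARC and THBS4. The 5 emu rises became 2 without splanchnopleure 6, and the 5 chick rises became 3 without lateral plate 31 or lateral plate 32. In the emu MATN4, a matrilin, fell with a change of -2.77 ± 0.72 (adjusted p 0.0278), a call lost without any 1 of the 5 libraries (0.0562 to 0.13). The chick rise of POSTN was lost without lateral plate 31 (0.0896), lateral plate 32 (0.0888) or splanchnopleure 64 (0.13), and that of THBS4 without any library but splanchnopleure 64 (0.0565 to 0.132). The emu rise of THBS4 was lost without splanchnopleure 6 (0.126). TNC encodes tenascin C, a large anti-adhesive protein of moving and remodelling tissue. It was at 133, 134 and 120 CPM in emu somatopleure, 2868 and 1531 in splanchnopleure and 59.0, 83.1 and 155 in lateral plate. Chick TNC was at 10.7, 5.48 and 4.68 CPM in somatopleure, 40.1, 40.9 and 36.2 in splanchnopleure and 5.81, 15.3 and 9.21 in lateral plate. Splanchnopleure libraries were above all others in both birds. TNC rose by 4.47 ± 0.40 in the emu (adjusted p 0.00167) and 1.96 ± 0.35 in the chick (0.00519), and both calls held.

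THBS1, thrombospondin-1, which activates latent TGF-beta and restrains vessel growth, behaved alike in both birds. Emu libraries had 190, 132 and 98.7 CPM in somatopleure, 486 and 763 in splanchnopleure and 131, 122 and 142 in lateral plate, and chick libraries 53.4, 50.7 and 68.4, then 186, 116 and 244, then 60.9, 70.9 and 79.1 CPM. The pooled emu library was here the higher one, and no splanchnopleure library overlapped another tissue. Splanchnopleure rose over lateral plate by 2.24 ± 0.27 in the emu (adjusted p 0.00255) and 1.38 ± 0.23 in the chick (0.00374), and both calls held. SPARC, a collagen-binding protein also called osteonectin, rose by 0.99 ± 0.15 in chick splanchnopleure (0.00187) and by 1.13 ± 0.21 in the emu (0.00959; 0.0903 without library 6). POSTN, periostin, swung between emu libraries (6.03, 3.41 and 50.9 CPM in somatopleure, 9.41 and 45.9 in splanchnopleure, 0.343, 1.23 and 2.20 in lateral plate), and its emu call (4.45 ± 1.24, 0.0356) was lost without any 1 of the 5 libraries (0.0683 to 0.185), with a change of 2.90 without the pool, 5.13 without lateral plate 8 and 5.19 without splanchnopleure 6. Chick POSTN was lower in somatopleure than in splanchnopleure with a change of -2.14 ± 0.35 (0.00186), which held.

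FN1, fibronectin, the adhesive scaffold on which early mesoderm cells move, was called in no comparison. It was at 7617, 5232 and 6370 CPM in emu somatopleure, 9732 and 4915 in splanchnopleure and 8046, 7768 and 6159 in lateral plate, and at 3101, 2371 and 3265, then 2236, 3828 and 4001, then 2535, 2347 and 2449 CPM in the same chick tissues. The ranges overlapped in both birds. Its changes ran from -0.20 ± 0.19 to 0.46 ± 0.19 in the chick and from -0.19 ± 0.27 to -0.00 ± 0.27 in the emu. THBS2 and THBS4, further thrombospondins, rose in chick somatopleure over the lateral plate by 1.09 ± 0.27 (adjusted p 0.0252) and 1.04 ± 0.21 (0.00958). The THBS2 call was lost without lateral plate 31 (0.0925), lateral plate 32 (0.0849) or somatopleure 63 (0.0919), and the THBS4 call held.

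Of the proteoglycans, DCN and LUM encode decorin and lumican, small leucine-rich proteins that bind collagen fibres, and they are neighbours in the chicken gene table. DCN had 6.15, 22.7 and 33.9 CPM in emu somatopleure, 576 and 433 in splanchnopleure and 2.74, 8.13 and 10.4 in lateral plate. Chick DCN was at 96.6, 133 and 64.8 CPM in somatopleure, 416, 406 and 539 in splanchnopleure and 43.2, 66.1 and 63.9 in lateral plate. The splanchnopleure stood apart in both birds. DCN rose in splanchnopleure by 6.16 ± 0.66 in the emu (adjusted p 0.00215) and 2.98 ± 0.25 in the chick (0.000132), and was lower in somatopleure than in splanchnopleure with a change of -4.59 ± 0.61 (0.00401) and -2.21 ± 0.24 (0.000136). All of these calls held with any library left out. LUM rose by 1.98 ± 0.30 in chick splanchnopleure (0.00202) and by 2.83 ± 0.63 in the emu (0.0169), the emu call being lost without splanchnopleure 6 (0.121) or lateral plate 8 (0.0523). VCAN, versican, the large hyaluronan-binding proteoglycan, was not called: 212, 75.2 and 479 CPM in emu somatopleure, 221 and 175 in splanchnopleure and 400, 242 and 282 in lateral plate, with overlap, and 0.77 ± 0.26 (0.063) for somatopleure against splanchnopleure in the chick.

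Lysyl oxidases crosslink collagen and elastin. LOXL2, which also acts on type IV collagen, rose in chick splanchnopleure (138, 147 and 159 CPM) over lateral plate (74.3, 83.3 and 76.1 CPM) by 0.93 ± 0.09 (adjusted p 0.000222). Chick somatopleure, at 104, 100 and 107 CPM, lay between them without overlap. In emu splanchnopleure it rose by 0.98 ± 0.23 (0.0189), a call lost without lateral plate 1 (0.069), lateral plate 23 (0.056) or splanchnopleure 6 (0.121). LOX, the founding member, was at 14.2, 9.15 and 16.3 CPM in emu somatopleure, 26 and 16.9 in splanchnopleure and 12.8, 10.2 and 14.7 in lateral plate without a call, and chick libraries held 15 counts of it in all.

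Among the MMPs, 4 rose and 1 fell in emu splanchnopleure against lateral plate (8 tested, all genes 11.4% higher and 9.21% lower). For the chick 1 rose and 1 fell (7 tested, all genes 9.07% higher and 7.78% lower), counts near those shares. The 4 emu rises became 2 without lateral plate 23 and 1 without any other of the libraries compared, and the emu fall was lost without any library but the pool. In the chick 2 rose without lateral plate 31 and 2 fell without splanchnopleure 61. MMP2, the gelatinase that digests type IV collagen, was at 154, 223 and 172 CPM in chick somatopleure, 363, 339 and 555 in splanchnopleure and 206, 246 and 165 in lateral plate. The chick splanchnopleure lay above both other tissues, by 1.03 ± 0.21 over the lateral plate (adjusted p 0.0082), and this held. In the emu MMP2 was at 136, 148 and 554 CPM in somatopleure, 591 and 444 in splanchnopleure and 43.1, 143 and 142 in lateral plate; its rise of 2.25 ± 0.65 (0.0412) was lost without any 1 of the 5 libraries (0.074 to 0.183).

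MMP17, an MMP tethered to the cell surface, moved the other way. In the chick it was at 37.6, 46.0 and 35.3 CPM in somatopleure, 51.1, 35.2 and 46.6 in splanchnopleure and 124, 116 and 135 in lateral plate, and both layers fell against the lateral plate, with a change of -1.66 ± 0.15 (somatopleure, adjusted p 8.47e-05) and -1.49 ± 0.15 (splanchnopleure, 0.000258). The layers overlapped each other and not the lateral plate. In the emu it fell in splanchnopleure with a change of -1.31 ± 0.36 (0.0344), a call lost without lateral plate 1 (0.0871), lateral plate 23 (0.0884), lateral plate 8 (0.0564) or splanchnopleure 6 (0.225). MMP23B, an MMP with an unusual domain order, rose in emu splanchnopleure (43.2 and 25.7 CPM) over lateral plate (3.66, 4.06 and 2.57 CPM) by 3.32 ± 0.39 (0.00252), without overlap and with any library left out. TIMP2 was the only inhibitor tested, as TIMP4 had too few counts and TIMP3 is not analysed here. TIMP2 rose in emu splanchnopleure by 1.08 ± 0.26 (0.0217), lost without lateral plate 1 (0.0792), lateral plate 8 (0.0682) or splanchnopleure 6 (0.163), and was 0.35 ± 0.18 in the chick (0.205).

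All 17 ADAMTS and ADAMTS-like genes were tested in both birds. In splanchnopleure against lateral plate 11 rose and 1 fell in the emu (all genes, 11.4% higher and 9.21% lower). Chick counts were 6 and 2 (all genes, 9.07% higher and 7.78% lower). The 11 emu rises became 3 without splanchnopleure 6, 4 without lateral plate 1 and 5 when lateral plate 23 or 8 was left out. The 6 chick rises became 2 without lateral plate 30 or lateral plate 32 and 3 without splanchnopleure 64. The emu fall was lost without any library but splanchnopleure 6, and the 2 chick falls became 1 without splanchnopleure 61 and 0 without any other library but lateral plate 31. ADAMTS5, an enzyme that cuts versican and aggrecan, had 3.77, 0.956 and 2.89 CPM in emu somatopleure, 38.5 and 26.8 in splanchnopleure and 1.71, 1.23 and 3.43 in lateral plate. The splanchnopleure stood alone, and the rise of 3.93 ± 0.54 (adjusted p 0.00361) held. In the chick ADAMTS5 rose by 2.75 ± 0.69 (0.0209), lost without lateral plate 30 (0.0757), lateral plate 32 (0.0701) or splanchnopleure 64 (0.0613), and at 3.42 without lateral plate 31.

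ADAMTS9, another versican-cutting enzyme, was at 96.9, 87.9 and 110 CPM in emu somatopleure, 711 and 462 in splanchnopleure and 46.3, 155 and 85.8 in lateral plate. It rose in splanchnopleure by 2.62 ± 0.41 in the emu (adjusted p 0.00506, held) and by 1.29 ± 0.28 in the chick (0.0122; 0.0587 without lateral plate 30 and 0.0534 without lateral plate 32). ADAMTS2, which trims the ends of procollagen, had 12.7, 9.56 and 13.4 CPM in emu somatopleure, 121 and 42.8 in splanchnopleure and 6.86, 8.86 and 12.5 in lateral plate, so the splanchnopleure again stood apart. Its rise was 3.12 ± 0.42 (0.00328; 2.19 without library 6). ADAMTS20 was the member of the family that fell in both birds, with a change of -1.02 ± 0.29 in emu splanchnopleure (0.0367) and -0.83 ± 0.23 in chick splanchnopleure (0.0341); the emu call was lost without any lateral plate library (0.0631 to 0.106) or the pooled library (0.154), and the chick call without lateral plate 30 (0.113), lateral plate 32 (0.132) or any splanchnopleure library (0.0731 to 0.0893).

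In chick somatopleure against lateral plate 3 members of the family rose and 0 fell (all genes, 3.52% higher and 6.28% lower). ADAMTSL3, an ADAMTS-like protein without the protease domain, had 15.0, 22.5 and 27.7 CPM there, 7.21, 6.12 and 23.1 in chick splanchnopleure and 0.484, 2.37 and 1.4 in chick lateral plate. Both layers lay above the lateral plate, by 3.96 ± 0.63 in somatopleure (adjusted p 0.00251; 4.64 without lateral plate 31) and 3.14 ± 0.63 in splanchnopleure (0.00805; 2.25 without splanchnopleure 64 and 3.81 without lateral plate 31). Emu levels were 0.879, 0.137 and 0.657 CPM in somatopleure, 2.06 and 1.16 in splanchnopleure and 0.457, 0.492 and 1.35 in lateral plate, with no call. ADAMTS1 had 462 CPM in emu somatopleure 5, against 52.7 and 25.4 in the other somatopleure libraries, 1328 and 468 in splanchnopleure and 14.9, 44.7 and 45.6 in lateral plate. Its rise in emu splanchnopleure, 4.68 ± 1.13 (0.0216), was lost without splanchnopleure 6 (0.126, change 3.74) or any lateral plate library (0.0595 to 0.0819). ADAMTS15, a versican-cutting enzyme whose gene adjoins ADAMTS8, rose in chick somatopleure by 2.45 ± 0.56 (adjusted p 0.0185, against 0.0614 without lateral plate 30 and 0.0808 without lateral plate 32; change 3.24 without lateral plate 31), and ADAMTS8 was higher in chick somatopleure than in splanchnopleure by 1.65 ± 0.40 (0.015; 0.0568 without somatopleure 63).

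The integrin subunits matched by the rule were ITGA1, ITGA4, ITGA8, ITGA9 and ITGA11 and 6 beta subunits. ITGA8 pairs with ITGB1 into a receptor for fibronectin and, in the mouse kidney, for nephronectin. Chick levels were 6.37, 5.73 and 7.76 CPM in somatopleure, 124, 92.0 and 130 in splanchnopleure and 42.7, 69.2 and 46.5 in lateral plate. Emu levels were 8.16, 6.96 and 11.2 CPM in somatopleure, 17.9 and 16.6 in splanchnopleure and 10.7, 9.85 and 8.08 in lateral plate. The chick tissues did not overlap and the somatopleure lay far below both others, whereas the emu somatopleure and lateral plate overlapped. In the chick ITGA8 was lower in somatopleure than in splanchnopleure with a change of -4.12 ± 0.23 (adjusted p 2.49e-06) and than in lateral plate with a change of -2.99 ± 0.23 (3.17e-05), and rose in splanchnopleure over lateral plate by 1.13 ± 0.19 (0.00414), all held. The emu values were -0.97 ± 0.27 (0.0468), -0.12 ± 0.25 (0.899) and 0.85 ± 0.27 (0.0548). The emu call was lost without somatopleure 13 (0.11), somatopleure 53 (0.099), splanchnopleure 6 (0.241) or the pooled library (0.104).

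ITGB1, the beta subunit shared by most matrix-binding integrins, was at 438, 339 and 358 CPM in emu somatopleure, 788 and 652 in splanchnopleure and 355, 355 and 337 in lateral plate. It rose in emu splanchnopleure by 1.04 ± 0.14 over the lateral plate (adjusted p 0.00299) and was lower in somatopleure than in splanchnopleure with a change of -0.93 ± 0.14 (0.00509), and both calls held. Chick ITGB1 was not called, at 496, 613 and 634 CPM in somatopleure, 643, 661 and 805 in splanchnopleure and 603, 588 and 631 in lateral plate. ITGA1, a collagen-binding partner of ITGB1, had 8.41, 7.51 and 8.02 CPM in emu somatopleure, 54.4 and 22.0 in splanchnopleure and 5.71, 5.17 and 6.0 in lateral plate, and rose in splanchnopleure by 2.76 ± 0.35 (0.00292; 1.96 without library 6). ITGA11, a receptor for fibrillar collagen, was lower in chick somatopleure (0.749, 0.255 and 0.246 CPM) than in splanchnopleure (6.31, 3.37 and 5.92 CPM) with a change of -3.59 ± 0.54 (0.001), or -4.28 without somatopleure 15.

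ITGB3, which pairs with the alpha v subunit on endothelial cells, had 15.7, 12.2 and 11.8 CPM in emu somatopleure, 125 and 47.4 in splanchnopleure and 19.4, 20.3 and 27.1 in lateral plate. In the chick it had 17.5, 12.7 and 7.14 CPM in somatopleure, 20.6, 19.9 and 34.9 in splanchnopleure and 45.1, 39.1 and 34.9 in lateral plate. Emu somatopleure was below splanchnopleure with a change of -2.70 ± 0.36 (adjusted p 0.00432; -1.83 without library 6), and chick somatopleure was below lateral plate with a change of -1.68 ± 0.31 (0.0058). Endothelial markers were lower in both comparisons, 13 of 16 in the emu one and 12 of 16 in the chick one (all genes called lower, 8.34% and 6.28%). In chick splanchnopleure against lateral plate ITGB3 was -0.66 ± 0.30 (0.157, not called). There 2 of 16 endothelial markers rose and none fell, with a share of rises near that of all genes (9.07% higher and 7.78% lower). Their part in the ITGB3 result was not tested. ITGA4, a fibronectin and VCAM1 receptor, and ITGB5 were called in no comparison.

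The change between tissues was then set against species, as the emu log2 change minus the chick one, in a joint fit of all 17 libraries over 9736 genes, of which 97 were members. The change of splanchnopleure against lateral plate was greater in the emu for 17 members and smaller for 2 (background 9.57% called, 4.88% greater and 4.69% smaller; median difference 0.71 in the set and -0.05 over all genes). Of the 17, 8 were collagens (COL1A1, COL1A2, COL3A1, COL5A2, COL6A1, COL6A3, COL9A2 and COL12A1) and the rest LAMA5, LAMB1, LAMC1, FBN1, TNC, DCN, MMP23B, ITGB1 and ITGB3. COL1A2 had the smallest adjusted p, with a difference of 3.52 ± 0.48 (0.000947). It came from a change of 4.73 ± 0.45 in the emu and 1.20 ± 0.19 in the chick. The calls on COL1A2, COL5A2 (1.93 ± 0.36, 0.00531), DCN (3.17 ± 0.66, 0.00943) and COL22A1 (-3.41 ± 0.62, 0.00496) held with any library left out. Without emu splanchnopleure 6 the counts fell to 3 greater and 1 smaller, and the smaller count was 1 also without emu lateral plate 23, the pooled library, chick lateral plate 30 or chick splanchnopleure 50.

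For somatopleure against splanchnopleure the emu minus chick difference was positive for 4 members and negative for 12 (background 5.46%, 3.1% positive and 2.36% negative; median -0.22 in the set and 0.06 over all genes). ITGA8 (3.16 ± 0.34, adjusted p 0.000164), COL22A1 (4.59 ± 0.63, 0.000956), COL21A1 (4.28 ± 0.60, 0.000956), COL1A2 (-3.47 ± 0.48, 0.000956), LAMA4 (-2.78 ± 0.47, 0.0035) and COL6A3 (-4.92 ± 0.81, 0.00288) held with any library left out. COL22A1 was 5.20 without chick somatopleure 15, and COL6A3 was -4.22 without emu splanchnopleure 6 and -5.57 without chick splanchnopleure 64. COL22A1 and COL6A3 were called in opposite directions in the birds in this contrast, and the other 18 of the 20 members called in both had the same sign, as did 485 of 513 over all genes. For these genes both chick calls held, but neither emu call did. The emu COL22A1 call was lost without somatopleure 13 (adjusted p 0.0561) or either splanchnopleure library. The emu COL6A3 call was lost without somatopleure 13, somatopleure 53 or splanchnopleure 6. The 12 negative calls became 3 without emu splanchnopleure 6, 4 without emu somatopleure 53 or chick splanchnopleure 50, 6 without chick somatopleure 63 and 7 without emu somatopleure 13.

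For somatopleure against lateral plate the difference was positive for 4 members and negative for 2 (background 2.96%, 2.05% positive and 0.904% negative; median 0.41 in the set and 0.01 over all genes). Only ITGA8 held with each library left out: 2.87 ± 0.32 (adjusted p 0.000749), from -0.12 ± 0.25 in the emu and -2.99 ± 0.23 in the chick. LAMA5 (1.26 ± 0.26, 0.0182) was lost without emu lateral plate 1 (0.0515) or chick somatopleure 60 (0.0662). The positive count was 2 without emu lateral plate 1, emu lateral plate 8, chick lateral plate 31 or chick somatopleure 63, and 1 without chick somatopleure 60. The negative count was 1 without emu lateral plate 1 or chick lateral plate 31, 4 without emu somatopleure 5, and 0 without emu lateral plate 8, emu somatopleure 53, chick lateral plate 30, chick lateral plate 32, chick somatopleure 60 or chick somatopleure 63.

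**Figure D5:**
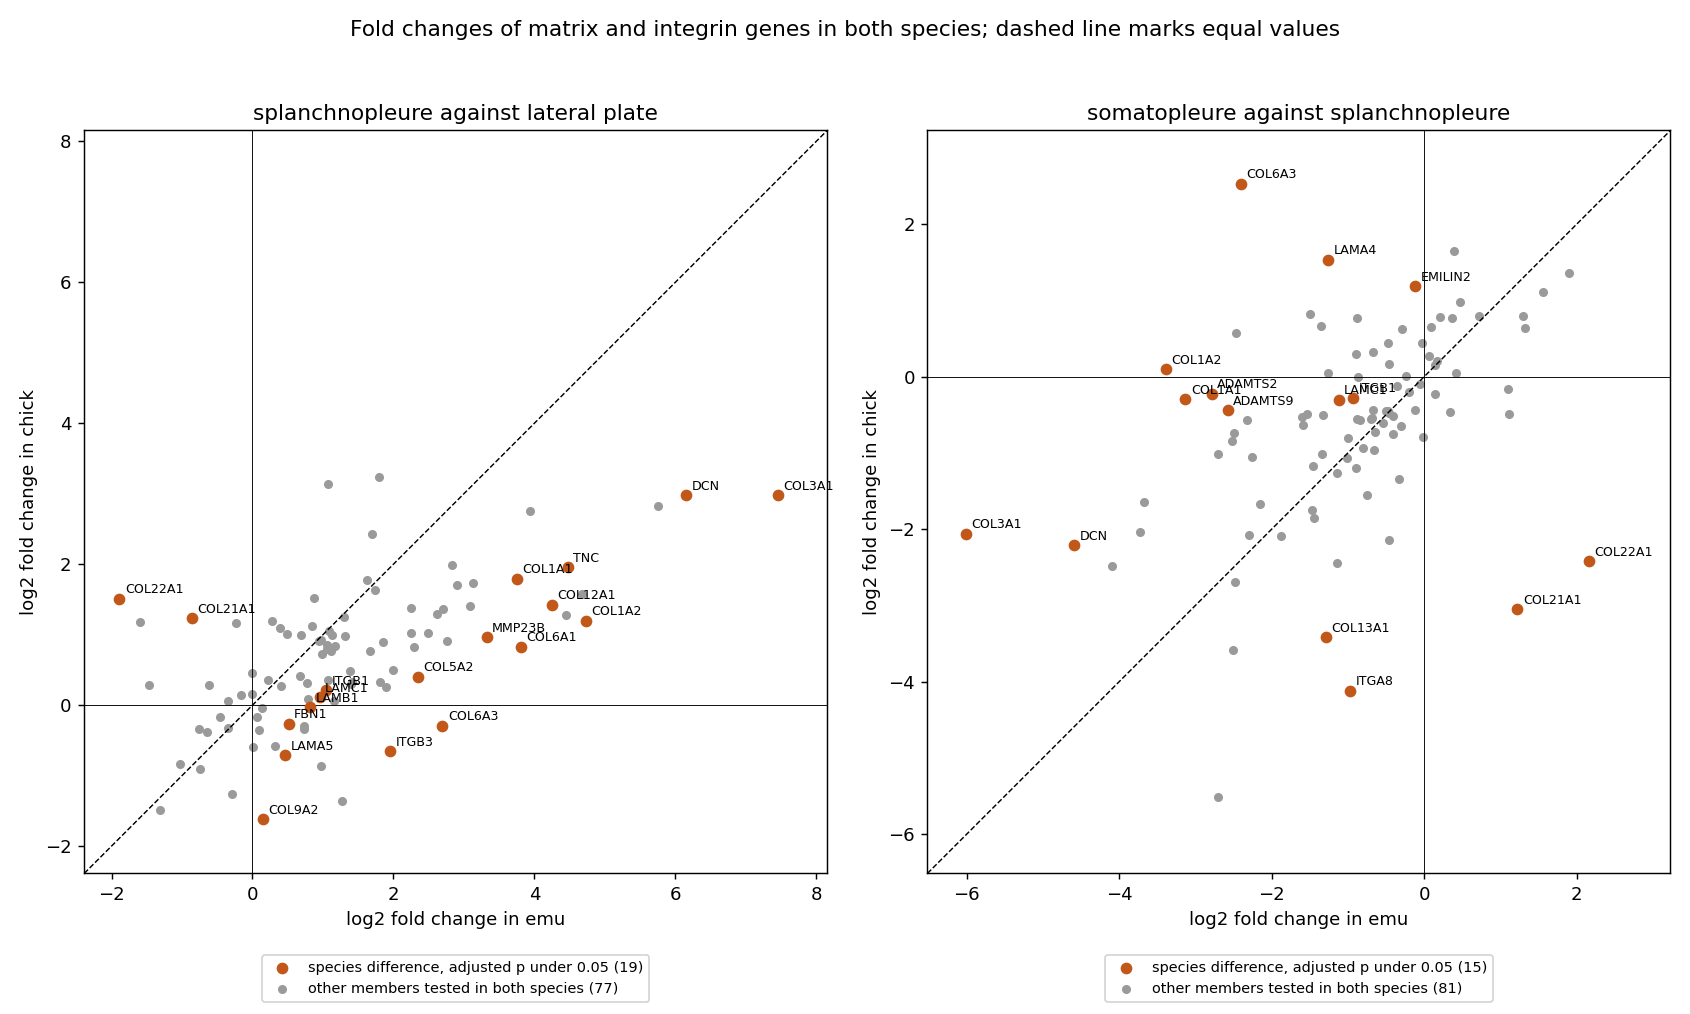
Points are 96 of the 97 members tested in both species, with the log2 fold change in the emu on the horizontal and in the chick on the vertical axis, for splanchnopleure against lateral plate (left) and somatopleure against splanchnopleure (right); orange points are named and have a species difference at an adjusted p under 0.05 (19 and 15). Most orange points on the left lie below the dashed line of equal change, and COL22A1 lies in the quadrant of opposite signs in both panels.

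Emu and chick share no library, so their changes can be set side by side, as a description over genes that are not replicates. Across the 97 members the changes of splanchnopleure against lateral plate had a Pearson correlation of 0.59 (Spearman 0.57), against 0.40 (0.35) over all genes, and 71 (73.2%) had the same sign, against 63.2% of all genes tested. For somatopleure against splanchnopleure the Pearson correlation was lower in the members, 0.37 against 0.49 over all genes (Spearman 0.44 and 0.38), with the same sign in 76.3% and 64.8%. For somatopleure against lateral plate it was 0.33 and 0.24 (Spearman 0.41 and 0.11), with the same sign in 60.8% and 52.8%. In splanchnopleure against lateral plate, members called in both birds numbered 28, which is 49.1% of the 57 emu calls and 73.7% of the 38 chick calls, and 27 of them had the same sign. Of those 28, calls in both birds held with any library left out only for COL1A1, COL1A2, COL3A1, COL12A1, HSPG2, DCN, TNC and THBS1. Over all genes 606 were called in both, 29.9% of the emu and 37.0% of the chick calls, and 554 of them had the same sign. The splanchnopleure was the tissue with the highest mean for 73 members in the emu and 59 in the chick, and for 51 in both; the highest tissue was the same in both birds for 62.9% of members and 44.1% of all genes.

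Other genes of matrix assembly and adhesion, not matched by the symbol rule, were read from 6 lists, whose counts in splanchnopleure against lateral plate stand beside 11.4% of all emu genes and 9.07% of all chick genes called higher. In that contrast collagen processing and crosslinking genes rose in 9 of 15 cases in the emu and 2 of 15 (a share near that of all genes) in the chick, with none lower. The emu count became 3 without splanchnopleure 6 and 6 without lateral plate 1 or lateral plate 8, and the chick count stayed at 2. PPIB, a helper of collagen folding, rose by 1.27 ± 0.18 in the emu (adjusted p 0.00379) and was 0.18 ± 0.12 in the chick (0.352). Other matrix glycoproteins rose in 17 of 30 cases in the emu and 11 of 27 in the chick, with 1 lower in each. Those rises became 7 without emu splanchnopleure 6 and 10 without emu lateral plate 1, and in the chick 4 without splanchnopleure 64, 5 without lateral plate 30, 6 without lateral plate 32 and 7 without lateral plate 31. The emu fall was lost without any library but lateral plate 23. FREM2, of the Fraser complex under epithelia, rose by 1.93 ± 0.24 in the emu (0.00278) and 1.75 ± 0.25 in the chick (0.00172), and CTGF, a matricellular protein, by 1.65 ± 0.15 in the emu (0.00167) and 0.43 ± 0.21 in the chick (0.188, not called). NPNT, nephronectin, rose in the emu by 2.09 ± 0.26 (0.00275) and was 0.43 ± 0.28 in the chick (0.323).

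Of 10 hyaluronan and link protein genes, 5 rose in emu splanchnopleure against lateral plate, and 3 rose and 2 fell in the chick. The emu rises became 2 without splanchnopleure 6, the chick rises 2 without lateral plate 30 or lateral plate 32, and the chick falls 1 without any library but lateral plate 32 or splanchnopleure 64. STAB1, a scavenger receptor of endothelium and macrophages, rose by 2.04 ± 0.21 (adjusted p 0.00215) and 0.75 ± 0.15 (0.00897). Cell surface proteoglycans rose in 3 of 8 cases in the emu and 1 of 9 in the chick, the chick share being near that of all genes, and the emu count was 1 without splanchnopleure 6 or lateral plate 1 and 2 without lateral plate 8. Genes of the integrin adhesion complex rose in 7 of 19 cases in the emu (1 without splanchnopleure 6 and 4 without lateral plate 1) and 4 of 19 in the chick. Other proteases and inhibitors rose in 6 of 18 cases in the emu and 5 of 17 in the chick, with 2 lower in the chick. The emu count was 1 without splanchnopleure 6, 3 without lateral plate 1 or lateral plate 8 and 4 without the pool, and the chick count became 3 when splanchnopleure 64 or lateral plate 30 was left out and 2 when lateral plate 32 was. The 2 chick falls became 0 or 1 without any 1 of the 6 libraries. ZYX, zyxin, of focal adhesions, rose by 1.05 ± 0.13 in the emu (0.00258) and was 0.12 ± 0.09 in the chick (0.401). The calls on PPIB, FREM2, CTGF, NPNT, STAB1 and ZYX held with each library left out. HAS2, the main hyaluronan synthase of the embryo, was higher in somatopleure than in splanchnopleure in both birds, by 2.10 ± 0.54 in the emu (0.0375; 0.248 without splanchnopleure 6) and 2.24 ± 0.44 in the chick (0.00479; held, with values of 1.63 to 2.49).

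Several members were too rare to test. MMP7, ITGB6 and TIMP4 passed the count filter in neither bird. SPARCL1 and LOXL4 were tested in the chick alone (17 and 27 counts over all emu libraries). COL8A1, COL28A1, COL20A1, COL4A3, COL4A4, MATN1, MATN3, MATN4, MMP9, ITGB2 and LOX were tested in the emu alone, with 8 to 62 counts each over all chick libraries. Every member had at least 1 count in each species. MMP11 is listed in the chicken gene table as an older symbol of SMARCB1, so which gene its counts belong to is uncertain. It was not called. MMP23B and ITGB1BP2 have no match in that table, so the gene behind each of these symbols could not be checked there. Reads shared by near-identical chains, such as those of the collagens and laminins, could have been split or dropped in the counting, whose settings are not given in the sources used here.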

How the data were processed

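The authors deposited raw whole-number read counts per gene for each library. STAR, featureCounts, DESeq and the chicken build galGal4 are named, without versions, in the submitters' processing notes. The genome used for the emu reads, and the use of strand, are not given in the sources used here. Per the labels, RNA from PicoPure columns was amplified for 15 cycles from 50 ng. The labels do not say whether libraries came from separate embryos, so p-values cover only the spread among these libraries, and this can be technical.

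Each species' early table was fitted whole in R 4.3.3 with edgeR 4.0.16: TMM scaling, filterByExpr (minimum count 10, total 15) and the two-sided quasi-likelihood F test, with p-values adjusted by Benjamini-Hochberg over every gene tested. Species differences came from a joint fit of 6 groups. The biological coefficient of variation was 0.221 (emu), 0.168 (chick) and 0.188 (joint). The scripts were tested on simulated data. Alternatives were RLE scaling, no filter, DESeq2 1.42.0, only the 2 tissues compared, each library left out, and both emu libraries with another stage label left out. Fold changes are log2 with their standard error.

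The members and lists were chosen with earlier results of these data known. Genes named are the largest changes per role, species-difference calls and fixed key genes; 1 member is counted but not reported by name or drawn here; FBN2, TIMP3, ITGA5 and ITGA6 of those are not analysed here. COL18A1, COL14A1, NID2, ITGB5, MATN4, ADAMTS3, the untested members and the genes of other lists were named after their values were seen. The HH18 tables of the series name genes by identifiers that no table used here pairs with symbols, and were not used.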

Additional observations from a re-analysis of the deposited data

Results flagged for a closer look

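The values below are differences between the species in the same contrast, the emu log2 change minus the chick one, each past an adjusted p of 0.05 in edgeR's joint fit, the test of the difference itself. No explanation was weighed.

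For splanchnopleure against lateral plate, collagen differences were 4.47 for COL3A1, 3.52 for COL1A2, 2.97 for COL6A3, 2.96 for COL6A1, 2.81 for COL12A1, 1.93 for COL1A1, 1.93 for COL5A2, 1.75 for COL9A2, -2.12 for COL21A1 and -3.41 for COL22A1. Other members had 3.17 for DCN, 2.60 for ITGB3, 2.5 for TNC, 2.35 for MMP23B, 1.17 for LAMA5, 0.83 for LAMB1, 0.83 for LAMC1, 0.82 for ITGB1 and 0.76 for FBN1. Leaving out emu splanchnopleure 6 ended 15 of these 19 calls, and leaving out chick splanchnopleure 50 ended 6.

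For somatopleure against splanchnopleure, collagen differences were 4.59 for COL22A1, 4.28 for COL21A1, 2.14 for COL13A1, -2.82 for COL1A1, -3.47 for COL1A2, -3.94 for COL3A1 and -4.92 for COL6A3. ITGA8 had 3.16, ITGB1 -0.64, LAMC1 -0.81, EMILIN2 -1.30, ADAMTS9 -2.13, DCN -2.37, ADAMTS2 -2.54 and LAMA4 -2.78. Leaving out emu splanchnopleure 6, emu somatopleure 53 or chick splanchnopleure 50 each ended 9 of the 16 calls in this contrast, and chick somatopleure 63 ended 8.

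For somatopleure against lateral plate, the differences were 2.87 for ITGA8, 1.46 for MMP17, 1.26 for LAMA5, 0.80 for FBN1, -1.89 for LAMA4 and -4.37 for ADAMTSL3. Leaving out chick somatopleure 60 ended 5 of the 6 calls, all but that on ITGA8.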

How the results depend on the processing

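Some called members had a fold change that moved by more than 1.5 times with a library left out, and none of these changed direction. Changes that were not called could do so. For emu FN1, splanchnopleure 6 lay above and the pooled library below every lateral plate library, so the direction depends on the library left out. Counts of members higher and lower that moved by more than 1.5 times under other settings were as follows. DESeq2 gave 2 and 1 for emu somatopleure against lateral plate (edgeR, 0 and 0) and 9 and 4 for the species difference in that contrast (4 and 2); it gave no adjusted p for ADAMTS1 in 6 tests. Without both emu libraries that carry another stage label, emu splanchnopleure against lateral plate had 25 and 0, emu somatopleure against splanchnopleure 0 and 23, and the species difference of somatopleure against lateral plate 1 and 0. Fitting only the 2 tissues compared left 0 members higher in emu somatopleure than in splanchnopleure. With 1 library left out, members higher and lower ranged over 17 to 47 and 0 to 2 (emu splanchnopleure against lateral plate), 0 to 6 and 14 to 48 (emu somatopleure against splanchnopleure), 0 and 0 (emu somatopleure against lateral plate), 23 to 34 and 3 to 7, 4 to 11 and 27 to 42, and 8 to 14 and 9 to 13 (the same chick contrasts), and 3 to 21 and 1 to 2, 3 to 5 and 3 to 16, and 1 to 6 and 0 to 4 (the same species differences). The cause was not tested. No paired analysis was possible because the early libraries share no replicate numbers between the groups compared. With 2 or 3 libraries a group, a missed threshold does not show that tissues were alike, and members with few counts were not tested.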
